A study of Homo sapiens with 8 samples.

Results

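The TNF-α response of control cells was measured in 4 of the 8 bulk RNA-seq libraries of this study, chosen by their labels: 2 libraries of unstimulated U2OS cells with a control shRNA and 2 libraries of the same cells after 5 h with TNF-α. U2OS is a human osteosarcoma line, and the labels give the genotype of the control cells as WT. The other 4 libraries came from U2OS cells with an shRNA against WSB2, a substrate receptor of a ubiquitin ligase, unstimulated or with TNF-α for 5 h; these KD cells entered the fit to estimate the spread between libraries and are compared below at WSB2 and in the size of the TNF-α response. All groups share the line and the transduction. The labels call the control an shRNA, whereas the study's supplement in places describes the control of its knockdown cells as an empty vector, and untransduced cells were not analysed here. The sequence of the control shRNA and the concentration of TNF-α are not given in the sources used here, and nothing in the labels says whether libraries of a group came from separate cultures, so p-values measure only the spread between these libraries.

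Expression was read as FPKM, fragments scaled to exon length and library size, and tested on log2(FPKM + 1) for 16528 genes. The unstimulated control libraries held 15601098 and 16836522 reads in genes, and the TNF-α libraries 16705041 and 16554410. WSB2 itself stood at 27.7 and 28.0 FPKM in the unstimulated and 24.995 and 25.3 FPKM in the TNF-α control libraries, against 8.38 to 9.18 FPKM in the KD libraries. The unstimulated control libraries differed from each other more than the TNF-α libraries did. Over genes with at least 50 reads their variance was 30.1 times that of sampling noise, against 4.31 times for the TNF-α pair. On the Euclidean distance over all tested genes they lay 37.7 apart and the TNF-α pair 24.6, while a TNF-α library lay 39.2 to 46.4 from an unstimulated one. The unstimulated KD libraries stood apart from all others, at distances of 68.8 to 99.8, and counts without them are given beside the totals.

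The labelled cell type was checked with marker genes. SPARC at 253 to 293 FPKM, COL1A1 at 238 to 269 and VIM at 164 to 239.7, all made by mesenchymal cells, were abundant in the 4 control libraries, whereas COL1A2 and NT5E stayed under 0.1 FPKM and TWIST1 had no read. Of the osteoblast genes, RUNX2 stood at 1.47 to 2.02 FPKM, SP7 at 0.0169 or less and IBSP at 0. Of the 9 tested mesenchymal markers 0 passed the limma test for a TNF-α effect (2 at an unadjusted p under 0.05, 0 with voom; median log2 difference -0.06). Leukocyte markers summed to 0.177 and 0.499 FPKM without and 0.592 and 0.407 with TNF-α, with no read of CD68 or MS4A1 and PTPRC (CD45) at 0.0567 FPKM or less. The only leukocyte marker with enough reads to be tested, the integrin chain ITGAM, was higher after TNF-α (0.0821 and 0.0406 against 0.376 and 0.342 FPKM, limma adjusted p = 0.0362), and kept its call in 5 of 14 alternatives. Endothelial markers summed to 1.52 to 1.61 FPKM, with CLDN5 the most abundant and KDR and EMCN without a read, and 0 of 5 tested were called by limma (0 at an unadjusted p under 0.05, 0 with voom). Epithelial markers summed to 302 to 393 FPKM, nearly all of it KRT8, with EPCAM under 0.5 FPKM, and 0 of 7 tested were called (3 at an unadjusted p under 0.05, 0 with voom). Over all 16528 tested genes, 2899 had an unadjusted p under 0.05.

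TNF-α is an inflammatory cytokine that binds the receptor TNFRSF1A on most cells. The receptor gathers TRADD, RIPK1, TRAF2 and the ubiquitin ligases BIRC2 and BIRC3, and this complex turns on the IκB kinases and the MAP kinases. The IκB kinases mark the inhibitor IκBα (NFKBIA) for degradation, which frees NF-κB dimers such as RelA with p50 to enter the nucleus. Many NF-κB targets are chemokines, cytokines and survival genes, and others, such as NFKBIA itself and the deubiquitinase A20 (TNFAIP3), switch the signal off again.

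After 5 h of TNF-α the control cells carried more RNA of 9 of 11 NF-κB subunits and inhibitors and 9 of 14 tested chemokines. Also higher were CSF1 and CSF2, and 11 of 23 tested genes of the TNF receptor complex and its feedback. Of 24 tested AP-1 and early-response factors 11 were higher. The cells carried less RNA of BMP4, of ID1, ID2, ID4 and SMAD6, of 3 Frizzled receptors and of 8 HOX genes. CSF2, LTB, CXCL8, TRAF1 and CCL2 rose most, each by more than 4 on the log2 scale. ID2, HRCT1 and BMP4 had the largest falls among protein-coding genes. At a Benjamini-Hochberg adjusted p under 0.05 with limma, 512 genes were higher (3.10% of those tested) and 189 were lower (1.14%). Together they were 701 genes (4.24%), and in each of them the 2 groups of libraries did not overlap. Over all tested genes the groups did not overlap in 22.6% with TNF-α higher and in 19.9% with TNF-α lower. A log2 difference above 1 was seen in 139 of the genes that rose (0.841%), one above 2 in 31, and one below -1 in 28 of those that fell (0.169%). Protein-coding genes made up 458 of the genes that rose and 149 of those that fell. The median difference over all tested genes was 0.01. In bulk RNA, fewer cells that express a gene and less RNA per cell cannot be told apart.

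These totals depended on which libraries entered the fit. The 4 control libraries alone, with 2 residual degrees of freedom, gave 202 higher and 36 lower genes, and the fit without the unstimulated KD libraries gave 347 and 96. Without replicate 2 of the unstimulated control cells the fit gave 1431 and 699, without replicate 1 or 2 of the TNF-α cells 218 and 48 or 191 and 38. Genes that rose made up 73.0% of the calls, and 60.3% with total reads as the scale. Of 131 genes named by rule, 16 kept their call in 7 or fewer of up to 14 alternatives: CXCL3, VCAM1, CCL5, C1S, IL15, ITGAM, HMGCS1, MT-ATP8, NOG, CCL4, CEBPB, DUSP2, KLF2, MT-ATP6, MT-CYB and TNFSF9.

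**Figure D1:**
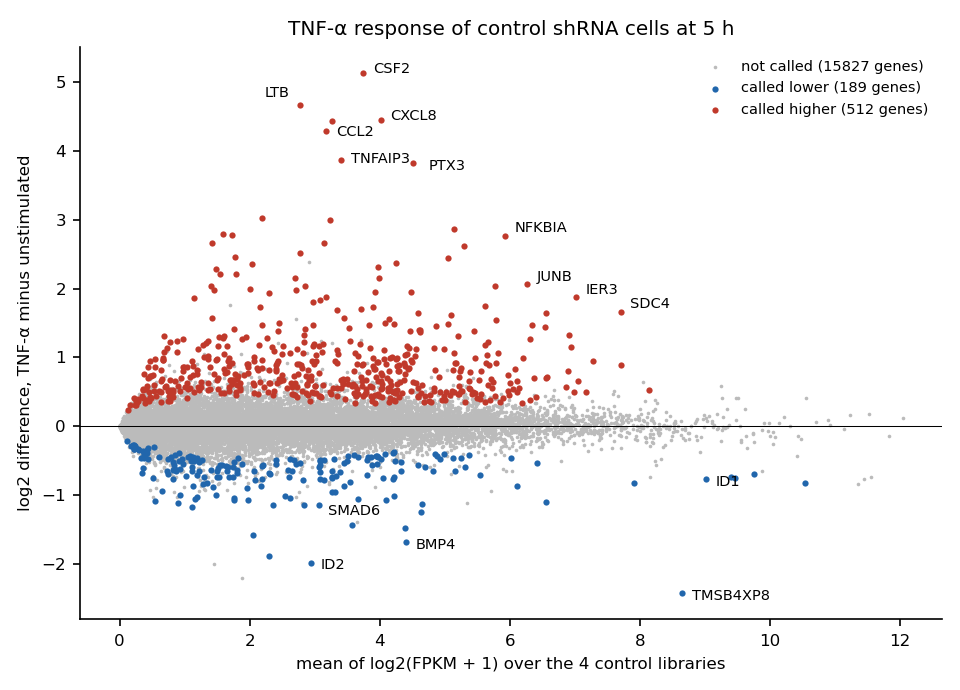
Each point is a tested gene: the x axis gives its mean log2(FPKM + 1) over the 4 control libraries and the y axis the log2 difference between TNF-α and unstimulated cells, with the 512 genes called higher, the 189 called lower and the rest in separate colours. The genes that rose most reach further from 0 than those that fell most, with CSF2 at 5.13 and TMSB4XP8 at -2.42.

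The 5 response markers rose together, and in each of them both TNF-α libraries lay far above both unstimulated libraries. CSF2 (chr5:132073790-132076170, GRCh38), which encodes the growth factor GM-CSF, went from 1.36 and 1.17 FPKM to 79.3 and 77.1, a ratio of 61.8 between the means (log2 difference 5.13, SE 0.0936, limma adjusted p = 2.75e-07). CXCL8 (chr4:73740506-73743716), the neutrophil chemokine IL-8, went from 2.38 and 2.54 FPKM to 78.7 and 69.9, a ratio of 30.2 (log2 difference 4.44, SE 0.0936, limma adjusted p = 4.08e-07). CCL2 (chr17:34255218-34257203), which attracts monocytes, went from 1.21 and 0.902 FPKM to 40.7 and 37.5 (log2 difference 4.29, SE 0.097, limma adjusted p = 5.61e-07). The spread within each pair was small beside these steps. TNFAIP3 (chr6:137867188-137883312), the gene of A20, went from 1.74 and 1.82 FPKM to 39.8 and 39.3 (log2 difference 3.87, SE 0.0729, limma adjusted p = 2.75e-07). NFKBIA (chr14:35401511-35404749, minus strand) started highest of the 5 and went from 24.7 and 20.01 FPKM to 153 and 161 (log2 difference 2.76, SE 0.111, limma adjusted p = 1.66e-05). On a ratio of FPKM the order was therefore CSF2, CCL2 (37.0), CXCL8, TNFAIP3 (22.2) and NFKBIA (7.02). The start of TNFAIP3 overlaps the non-coding gene AL357060.1, which was also called higher, and the strand of counting is not given in the sources used here, so reads in the overlap cannot be told apart.

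**Figure D2:**
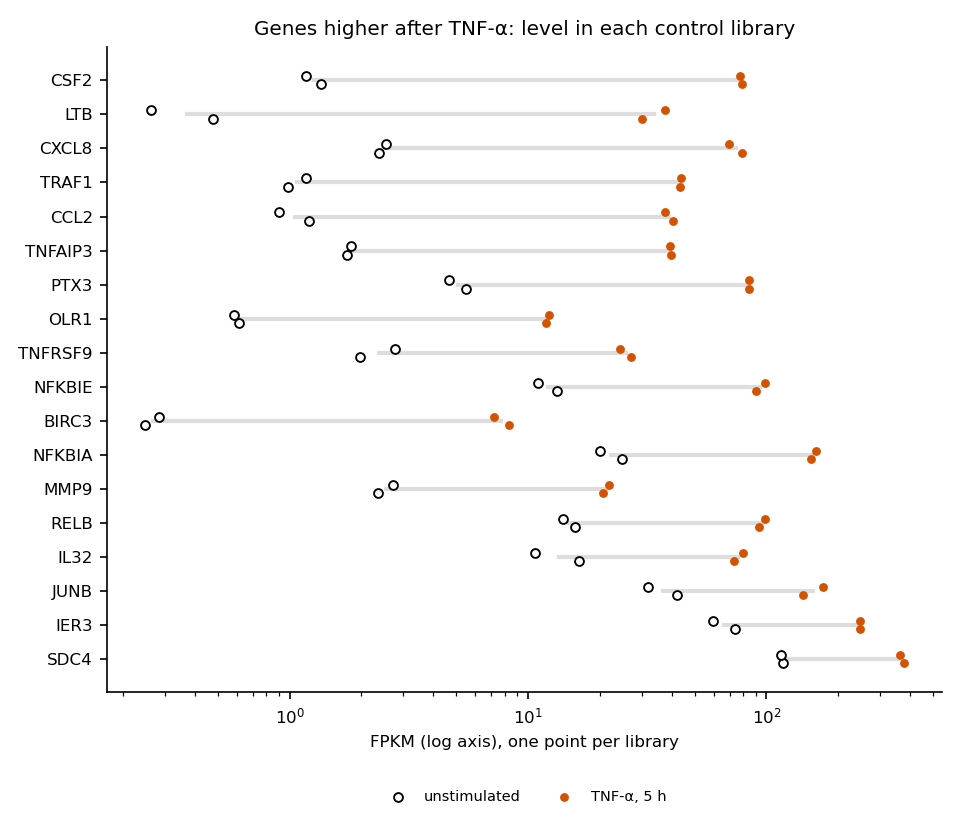
FPKM on a log axis for 18 genes that rose, with an open point for each unstimulated and a filled point for each TNF-α library of control cells; the grey bars join the group means. In all 18 the 2 filled points lie to the right of the 2 open points, and the gap is far wider for CSF2 (1.17 and 1.36 to 77.1 and 79.3) than for SDC4 (115 and 117 to 362 and 378).

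The promoters of 6 of the genes that rose most are shown because their motifs differ. Those of PTX3 and BIRC3 also held κB matches and are not printed, and no promoter was available for CCL2. The sequences are the 200 bases before the first RefSeq start of each gene on GRCh38.p14, read 5′ to 3′ on the gene's own strand: NFKBIA at chr14:35404750-35404949 (minus), TNFAIP3 at chr6:137867059-137867258 (plus), LTB at chr6:31582426-31582625 (minus), TNFRSF9 at chr1:7940840-7941039 (minus), CXCL8 at chr4:73740369-73740568 (plus) and CSF2 at chr5:132073589-132073788 (plus). Capitals mark matches, on either strand, of the κB consensus, of the AP-1 motif TGANTCA and of the letters GGAATTTCC, the last added after the CXCL8 promoter had been seen.
NFKBIA: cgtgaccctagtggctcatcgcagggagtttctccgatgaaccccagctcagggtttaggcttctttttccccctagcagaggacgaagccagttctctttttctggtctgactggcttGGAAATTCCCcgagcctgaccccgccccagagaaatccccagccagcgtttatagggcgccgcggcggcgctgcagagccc
TNFAIP3: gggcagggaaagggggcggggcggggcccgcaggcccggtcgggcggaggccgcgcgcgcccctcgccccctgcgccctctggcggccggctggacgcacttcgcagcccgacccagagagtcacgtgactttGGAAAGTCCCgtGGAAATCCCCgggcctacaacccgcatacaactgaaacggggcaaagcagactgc
LTB: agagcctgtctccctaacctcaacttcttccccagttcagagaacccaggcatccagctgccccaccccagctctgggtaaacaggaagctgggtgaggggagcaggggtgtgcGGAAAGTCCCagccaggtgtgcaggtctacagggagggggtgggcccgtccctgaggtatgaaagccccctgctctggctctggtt
TNFRSF9: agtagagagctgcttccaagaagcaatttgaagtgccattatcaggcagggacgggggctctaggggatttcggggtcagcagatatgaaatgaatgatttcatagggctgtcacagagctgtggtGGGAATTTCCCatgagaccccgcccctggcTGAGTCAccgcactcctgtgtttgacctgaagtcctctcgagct
CXCL8: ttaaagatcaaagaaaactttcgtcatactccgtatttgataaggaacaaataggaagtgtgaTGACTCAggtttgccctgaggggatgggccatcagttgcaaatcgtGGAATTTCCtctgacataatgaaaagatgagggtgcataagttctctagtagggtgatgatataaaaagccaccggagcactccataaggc
CSF2: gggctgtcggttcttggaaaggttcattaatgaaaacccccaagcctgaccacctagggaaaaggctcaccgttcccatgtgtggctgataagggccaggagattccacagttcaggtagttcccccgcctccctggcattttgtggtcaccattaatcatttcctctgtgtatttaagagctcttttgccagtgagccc
NFKBIA held a κB match 81 to 72 bases before its start, and TNFAIP3 held a pair, at 67 to 58 and at 55 to 46 bases before it. LTB held a κB match 86 to 77 bases before its start within the printed stretch. TNFRSF9 held overlapping κB matches on both strands and, 44 to 38 bases before its start, an AP-1 match. CXCL8 held an AP-1 match at 137 to 131 bases and GGAATTTCC at 91 to 83 bases before its start, and its promoter had no match of the κB consensus itself. The CSF2 window held none of these letters. It held a match of the looser κB pattern given below, 85 to 76 bases before its start, a pattern found in 73.2% of all promoters.

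A promoter of 300 bases (250 before to 50 after the start) was matched for 11129 of the 16528 tested genes. Matching went by gene identifier or, where that failed, by gene name on the same chromosome. The κB consensus, which opens with GGG and a purine and closes with pyrimidines and CC, was found in 82 of 352 promoters of genes that rose (23.3%), in 29 of 93 of those that rose by more than 1 (31.2%), in 14 of 105 of genes that fell (13.3%) and in 13.3% of all. AP-1 letters were found in 9.09% of the promoters of genes that rose, 4.76% of those that fell and 4.98% of all. The core of the interferon-stimulated response element, GAAA and GAAA with NN between them, was found in 6.53%, 4.76% and 2.75%. CRE letters, TGACGTCA, were found in 3.41%, 0.952% and 3.14%. A looser pattern, GGG and CC with any NNNNN between them, takes in every match of the κB consensus and was in 77.6%, 69.5% and 73.2%. GGAATTTCC, which overlaps the κB consensus where a G precedes it or a C follows it, was in 3.13%, 0% and 0.440%. These shares describe letters in a window and were not tested.

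The NF-κB family itself rose in 9 of 11 members, and none was lower, against 3.1% and 1.14% of all tested genes. Its median log2 difference was 1.02. RELB, the partner of p52 in the non-canonical pathway, went from 15.8 and 14.0 FPKM to 93.5 and 98.6 (log2 difference 2.61, SE 0.106, limma adjusted p = 1.71e-05). NFKB2, the precursor of p52, went from 27.9 and 24.1 FPKM to 106 and 113 (log2 difference 2.03). NFKB1, the precursor of p50, went from 9.20 and 11.5 FPKM to 43.6 and 41.7 (log2 difference 1.95). RELA, the subunit with the main activation domain in the canonical dimer, moved least of those called, from 27.3 and 28.9 FPKM to 41.0 and 39.9 (log2 difference 0.51, SE 0.0719, limma adjusted p = 0.00828). Among the inhibitors, NFKBIE (IκBε) rose as far as NFKBIA, from 13.3 and 10.99 FPKM to 90.0 and 98.5 (log2 difference 2.86, SE 0.102, limma adjusted p = 9.05e-06). NFKBIB (IκBβ) went from 35.2 and 26.0 FPKM to 55.8 and 67.5 (log2 difference 1.00, limma adjusted p = 0.0188). The nuclear IκB proteins BCL3 (log2 difference 1.02) and NFKBIZ (0.95) rose, and NFKBID was not called (2.17 and 2.13 against 2.08 and 2.72 FPKM). REL, under 0.5 FPKM in every control library, was not called either (adjusted p = 0.235).

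The TNF receptor complex and its feedback had 11 higher and 0 lower of 23 tested genes, against 3.1% and 1.14% of all. The median log2 difference of the list was 0.48. The genes that rose were adaptors, ubiquitin ligases and inhibitors, and the receptor and the core kinases were not called. TRAF1, an adaptor that binds TRAF2, went from 0.983 and 1.17 FPKM to 43.4 and 43.9 (log2 difference 4.43, SE 0.0853, limma adjusted p = 2.75e-07). BIRC3 (cIAP2), a ubiquitin ligase of the complex, went from 0.248 and 0.284 FPKM to 8.28 and 7.17 (log2 difference 2.78, limma adjusted p = 1.24e-05). Its neighbour BIRC2 (cIAP1), 7.81 kb away on chromosome 11, went from 4.27 and 5.30 FPKM to 13.0 and 11.6, a ratio of 2.56 between the means. TNIP1, which carries A20 to ubiquitin chains, went from 27.4 and 24.6 FPKM to 86.5 and 92.0 (log2 difference 1.74). ZC3H12A, an RNase that degrades cytokine mRNAs, went from 5.58 and 3.83 FPKM to 15.99 and 18.3 (log2 difference 1.69). TRAF3 (1.06), TNIP3 (0.96), the deubiquitinase CYLD (0.74), TRAF2 (0.65) and the caspase inhibitor CFLAR (0.62) completed the list of log2 differences that passed. TNFRSF1A was at 72.7 and 62.2 FPKM without and 66.9 and 69.1 with TNF-α, and TRADD, RIPK1, CASP8, MAP3K7, CHUK, IKBKB, IKBKG, TNIP2, TAX1BP1, OTULIN and MAP3K8 were not called. TNFRSF1B, the second TNF receptor, was too low to be tested, at 0.103 FPKM or less.

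Among chemokines, 9 of 14 tested genes were higher and 0 lower, against 3.1% and 1.14% of all tested genes. The median log2 difference was 0.70, and 2.46 with voom. Of the 22 genes on the list, 6 had no read in the control libraries. CXCL8 and CCL2 carried most of the rise: summed over the list, FPKM went from 39.3 and 30.9 to 157 and 149. CCL20, which attracts dendritic cells and Th17 cells, went from 0.460 and 0.254 FPKM to 5.52 and 4.96 (log2 difference 2.20, SE 0.127, limma adjusted p = 8.21e-05). The other chemokines that rose stayed low. CCL7, 13.0 kb from CCL2 on chromosome 17, had 0 reads in the unstimulated libraries and stood at 0.947 and 0.902 FPKM with TNF-α. CXCL5 went from 0.0263 and 0.0455 FPKM, 3 reads in all, to 1.24 and 0.843. CXCL10 went from 0.227 and 0.0491 FPKM to 1.496 and 0.937 (limma adjusted p = 0.016). CCL5, a T cell attractant also called RANTES, went from 2.03 and 1.95 FPKM to 3.12 and 3.69 (limma adjusted p = 0.0335), CXCL3 passed at adjusted p = 0.0465, and CCL4, a gene with near-identical copies, passed at adjusted p = 0.0427. Of 14 alternatives, CCL4 kept its call in 7, CCL5 in 4 and CXCL3 in 3, and the chemokines called higher numbered 7 when scaled to total reads and 6 with voom. CXCL1, CXCL2 and CXCL6, close relatives of CXCL8, had no read in any of the 4 libraries. CCL26 at 12.6 and 17.8 against 10.9 and 11.7 FPKM, CX3CL1, CXCL16, CXCL11 and CCL3 were not called.

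Of the interleukins and colony-stimulating factors, 10 of 17 tested were higher and 0 lower, against 3.1% and 1.14% of all tested genes. The median log2 difference was 0.51, and 1.39 with voom. Besides CSF2, the macrophage growth factor CSF1 went from 7.05 and 7.34 FPKM to 24.8 and 27.7 (log2 difference 1.73, SE 0.0816, limma adjusted p = 3.46e-05), while CSF3 had no read. IL32, a cytokine found in primates, went from 16.4 and 10.7 FPKM to 72.9 and 79.6 (log2 difference 2.44, SE 0.182, limma adjusted p = 0.000313). LIF and IL11, which both signal through gp130, went from 27.2 and 24.8 FPKM to 66.1 and 71.9 and from 16.6 and 14.0 FPKM to 29.9 and 30.1. IL6, a gp130 cytokine widely used as an NF-κB readout, was at 0.0645 and 0.195 FPKM without and 0.0911 and 0.439 with TNF-α and was not called (log2 difference 0.15, limma adjusted p = 0.615). IL23A, the p19 chain of IL-23, went from 0.112 and 0.535 FPKM to 3.92 and 4.86 (log2 difference 2.04, limma adjusted p = 0.000803). IL1A went from 0.0942 and 0.109 FPKM to 1.33 and 1.31, and IL1B, at 0.0431 and 0.0187 against 0.264 and 0.189 FPKM, did not pass (adjusted p = 0.0672). IL34, IL7 and IL15 rose from levels under 1 FPKM. IL18, the most abundant gene on the list, was at 62.7 and 47.2 against 54.2 and 50.7 FPKM and was not called.

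Among the TNF superfamily, 4 of 13 tested genes were higher and 1 lower (median log2 difference 0.27), against 3.1% and 1.14% of all genes. LTB (chr6:31580525-31582522), the membrane anchor of the lymphotoxin trimer, went from 0.478 and 0.263 FPKM to 29.9 and 37.5, a ratio of 91.0 (log2 difference 4.66, SE 0.135, limma adjusted p = 2.59e-06). TNF itself, 2.19 kb from LTB, had 3 reads in the unstimulated libraries and 300 with TNF-α, 5.59 and 5.84 FPKM. LTA, the third gene of this cluster, was too low to be tested, at 0.373 FPKM or less. TNFRSF9 (4-1BB), a costimulatory receptor, went from 1.97 and 2.76 FPKM to 27.1 and 24.3 (log2 difference 2.996, SE 0.127, limma adjusted p = 2.18e-05), whereas its ligand TNFSF9 went from 46.2 and 41.0 FPKM to 31.5 and 31.4, a fall by 0.46 on the log2 scale (limma adjusted p = 0.0331). The TRAIL receptor TNFRSF10B went from 17.3 and 19.3 FPKM to 41.1 and 41.9 (log2 difference 1.14), and its ligand TNFSF10 stayed at or under 0.0724 FPKM. CD40 (adjusted p = 0.059), FAS and the abundant TNFRSF12A were not called.

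Adhesion, protease and collagen lists are set here beside the 3.10% higher and 1.14% lower of all tested genes. Of 10 tested adhesion genes 4 were higher and 1 lower (median log2 difference 0.47). SDC4, a heparan sulfate proteoglycan of focal adhesions, had the largest gain in FPKM of all called genes, from 117 and 115 to 378 and 362 (log2 difference 1.66, SE 0.0849, limma adjusted p = 4.53e-05), while SDC2 went from 10.6 and 10.6 FPKM to 6.90 and 7.85 (limma adjusted p = 0.0286). ICAM1, a ligand of leukocyte integrins, went from 0.252 and 0.156 FPKM to 1.88 and 1.77 (log2 difference 1.23), and CD44, the hyaluronan receptor, from 24.5 and 26.1 FPKM to 45.8 and 44.4. VCAM1 was called from a single read in the unstimulated libraries to 0.229 and 0.161 FPKM and kept its call in 3 of 13 alternatives, and SELE was too low to be tested. MMP9, a gelatinase, went from 2.34 and 2.72 FPKM to 20.7 and 21.9 (log2 difference 2.66, SE 0.101, limma adjusted p = 1.24e-05) and led the 4 of 18 protease genes that were higher. PLAU, the urokinase, went from 11.1 and 10.8 FPKM to 24.2 and 21.0, MMP13 and SERPINB8 also passed, and MMP2, MMP14 and TIMP1 did not. Of the 14 tested collagens on the list 0 were called by limma and 0 with voom. An unadjusted p under 0.05 was seen in 1 of them, against 2899 of all 16528 tested genes. COL27A1 (log2 difference 0.80), COL22A1 (0.67) and COL15A1 (0.40), which are not on the list, rose.

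Complement and acute-phase genes held 4 higher of 13 tested (median log2 difference 0.08), against 3.1% of all tested genes. PTX3, a soluble pattern recognition protein, went from 5.50 and 4.65 FPKM to 84.3 and 84.3 (log2 difference 3.82, SE 0.0924, limma adjusted p = 7.86e-07). TNFAIP2 went from 1.78 and 1.93 FPKM to 15.3 and 15.2 (log2 difference 2.51), and complement C3 from 3.48 and 3.57 FPKM to 10.4 and 10.3 (log2 difference 1.33). C1S passed at adjusted p = 0.0338 and kept its call in 5 of 14 alternatives, and C1R, SERPING1, LCN2, PTGS2 and TNFAIP6 were not called. OLR1, the receptor of oxidised LDL, was on no list and went from 0.611 and 0.586 FPKM to 11.9 and 12.2 (log2 difference 3.03, SE 0.1003, limma adjusted p = 6.35e-06). The remaining gene among the 15 largest rises was AL355032.1, a processed pseudogene with 2 reads in the unstimulated libraries and 4.59 and 10.2 FPKM with TNF-α, for which reads of its parent gene cannot be told apart.

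Against 3.1% higher and 1.14% lower of all tested genes, antigen processing had 0 lower and 3 higher of 17 (median log2 difference 0.24). These were the peptide transporter subunits TAP1, from 10.6 and 9.63 FPKM to 28.9 and 31.4 (log2 difference 1.49, SE 0.0867, limma adjusted p = 8.24e-05), and TAP2 (0.49), and tapasin, TAPBP, from 30.3 and 33.0 FPKM to 72.1 and 73.0 (1.17). The class I chains HLA-B, HLA-C, HLA-E and HLA-F, B2M and the immunoproteasome subunits PSMB8, PSMB9 and PSMB10 were not called, B2M with a difference of 0.00. Interferon-stimulated genes held 8 higher of 29 tested and 0 lower, beside the same shares of all genes called. Their median of 0.06 was close to that of all genes. IRF1, a transcription factor of interferon and cytokine responses, went from 1.63 and 1.29 FPKM to 6.82 and 7.43 (log2 difference 1.73, SE 0.125, limma adjusted p = 0.00027). GBP2, GBP1, OAS3, IFIT3, IRF2, DDX58 and IFIH1 also rose, by 0.62 to 1.21. ISG15, IFI6, IFITM3, MX1, IFIT1, STAT2 and USP18 were not called.

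Of 24 tested AP-1 and early-response factors, 11 were higher and 0 lower (median log2 difference 0.44). For this count and that of ERK feedback genes below, all tested genes had 3.1% higher and 1.14% lower. JUNB went from 42.0 and 31.8 FPKM to 142 and 172 (log2 difference 2.07, SE 0.171, limma adjusted p = 0.000544), and FOSL1 (FRA1), which pairs with JUN proteins, from 57.9 and 46.6 FPKM to 162 and 169 (log2 difference 1.65). IER3, an early-response gene linked to survival, went from 73.9 and 59.5 FPKM to 246 and 246 (log2 difference 1.88). MAFF (1.58), EGR1 (1.36), MYC (1.04), FOSL2 (0.99), KLF6 (0.89), ATF3 (0.73), JUN (0.57) and KLF2 (0.51) were the other log2 differences that passed. FOS, at 1.63 and 1.66 against 1.84 and 1.48 FPKM, was not called, nor were FOSB, EGR2, NR4A1 and ZFP36. ERK feedback genes were higher in 7 of 12 (median log2 difference 0.51): the phosphatase DUSP5 went from 3.78 and 3.69 FPKM to 12.4 and 11.8 (log2 difference 1.47, SE 0.0824, limma adjusted p = 7.1e-05), and the EGFR inhibitor ERRFI1 from 10.2 and 13.2 FPKM to 25.7 and 22.8 (1.00). DUSP6 and DUSP4 were under 0.3 FPKM and not called.

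Survival and redox genes held 5 higher and 1 lower of 16 (median log2 difference 0.01), against 3.1% and 1.14% of all genes. BCL2A1, an anti-apoptotic BCL2 relative, went from 0.123 and 0.424 FPKM to 5.83 and 4.53 (log2 difference 2.28, SE 0.181, limma adjusted p = 0.000437). SOD2, the mitochondrial superoxide dismutase, went from 2.09 and 2.50 FPKM to 12.4 and 11.5 (log2 difference 1.97). GADD45A, a stress-response gene, went from 54.6 and 45.7 FPKM to 116 and 128, whereas GADD45B went from 39.4 and 29.9 FPKM to 21.3 and 21.8, a fall by 0.65 on the log2 scale (limma adjusted p = 0.0326). SQSTM1 (p62, 0.93) and MCL1 (0.54) rose, and FTH1, HMOX1, NQO1, XIAP, BCL2 and BCL2L1 were not called.

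**Figure D3:**
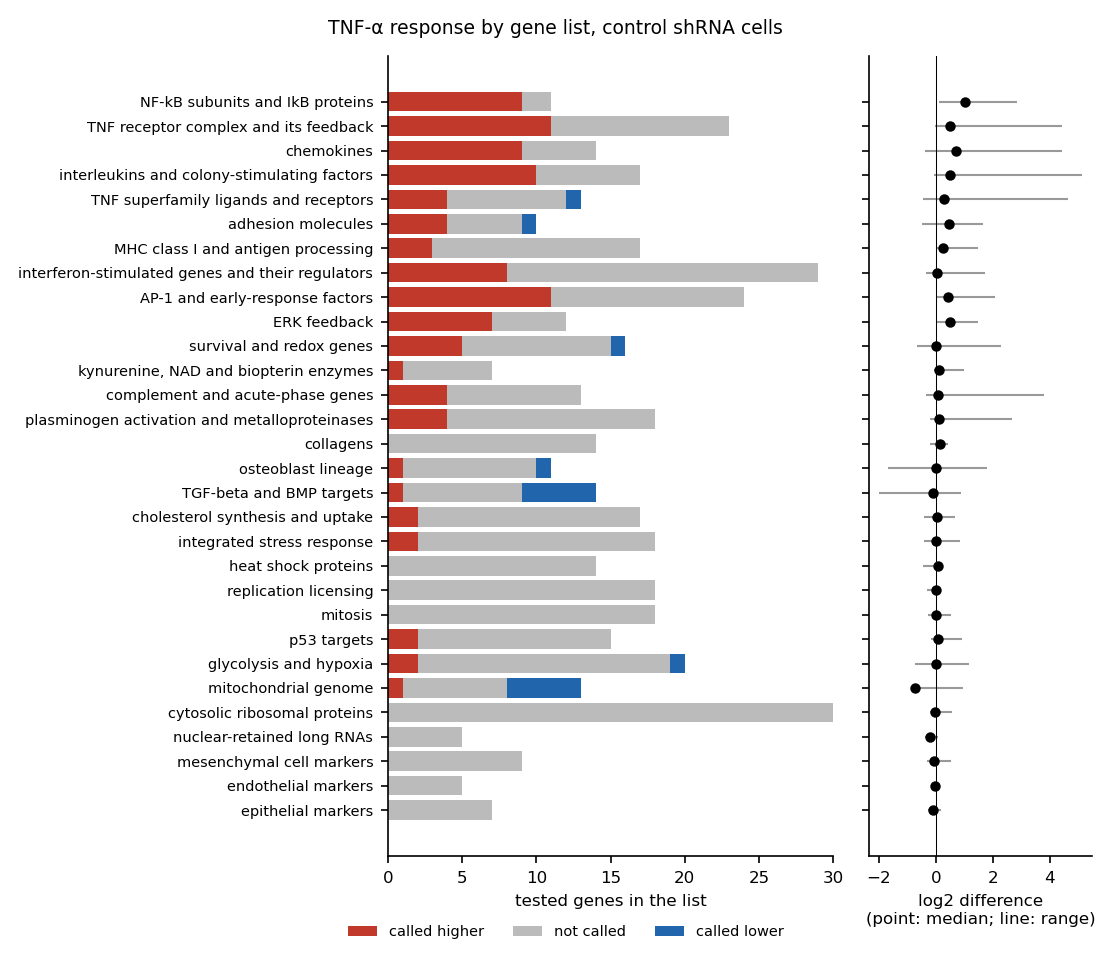
For each gene list, the left panel counts tested genes called higher, called lower and not called, and the right panel gives the median log2 difference as a point with the range as a line. NF-κB and IκB genes have the highest median, 1.02, the mitochondrial genome the lowest, -0.73, and lists such as mitosis and replication licensing lie at 0.01 and 0.00.

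Lists of growth and housekeeping programs held between 0 and 3 calls each, to be read against the 4.24% called of all tested genes. Replication licensing, mitosis, heat shock proteins, cytosolic ribosomal proteins and nuclear-retained long RNAs had 0 called by limma of 18, 18, 14, 30 and 5 tested, with medians of 0.00, 0.01, 0.07, -0.02 and -0.21. At an unadjusted p under 0.05 they held 2, 4, 3, 1 and 2 genes, to be read against 2899 of all 16528 tested genes. With voom, 1 mitotic gene and 1 ribosomal protein gene were called higher and 0 genes of the other 3 lists. The ribosomal list holds a part of these proteins, and RPL26, which is not on it, fell by 0.81. Cholesterol synthesis and uptake had 2 higher of 17 (HMGCS1 among them), while the synthesis enzyme MSMO1, not on the list, fell by 0.40. The integrated stress response had 2 higher of 18, CEBPB and PPP1R15A, and CEBPB kept its call in 7 of 14 alternatives. The p53 targets had 2 higher of 15 (BBC3 and PMAIP1, both pro-apoptotic BH3-only genes). Glycolysis and hypoxia genes had 2 higher, HK2 and ALDOA, and 1 lower of 20, the glucose transporter SLC2A3, which went from 6.04 and 7.79 FPKM to 3.99 and 3.50 (limma adjusted p = 0.0188). Kynurenine, NAD and biopterin enzymes had 1 higher of 7, GCH1, the first enzyme of biopterin synthesis, from 0.927 and 1.12 FPKM to 3.003 and 2.94, and IDO1 was too low to be tested. The osteoblast list had 1 higher and 1 lower of 11, BMP2 and BMP4.

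Several genes that fell belong to BMP signaling, a branch of TGF-β signaling that acts through SMAD proteins and switches on the ID genes. Of 14 tested targets of TGF-β and BMP, 5 were lower and 1 higher (median log2 difference -0.08), against 1.14% and 3.1% of all genes. ID2, which blocks basic helix-loop-helix factors, went from 14.8 and 13.8 FPKM to 2.68 and 3.09, 4.96-fold lower (log2 difference -1.98, SE 0.104, limma adjusted p = 5.2e-05). ID4 went from 25.8 and 24.99 FPKM to 11.7 and 12.4 (log2 difference -1.01, limma adjusted p = 0.00258). ID1, one of the abundant mRNAs of these cells, went from 765 and 598 FPKM to 388 and 406 (log2 difference -0.77, limma adjusted p = 0.0239). ID3, at 342 and 254 against 241 and 261 FPKM, overlapped between the groups and was not called. SMAD6, an inhibitor of BMP receptors, went from 11.1 and 11.6 FPKM to 4.51 and 4.71 (log2 difference -1.14, SE 0.0924, limma adjusted p = 0.00048), and NOG, the secreted BMP antagonist noggin, from 81.3 and 69.2 FPKM to 53.7 and 54.9 (log2 difference -0.46). NOG kept its call in 6 of 14 alternatives, and with upper-quartile factors 4 genes of the list were lower. SMAD7, CTGF, BAMBI and TGFBI were not called, and the matricellular gene CYR61 rose, from 154 and 153 FPKM to 279 and 291 (log2 difference 0.89).

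Ligands of the TGF-β superfamily moved both ways. BMP4 (chr14:53949736-53958761, minus strand) went from 39.9 and 34.0 FPKM to 10.5 and 11.1, 3.43-fold lower (log2 difference -1.68, SE 0.0992, limma adjusted p = 8.58e-05). BMP2, its close relative, went from 3.52 and 2.92 FPKM to 13.2 and 14.4 (log2 difference 1.81, SE 0.1001, limma adjusted p = 6.86e-05), so that BMP4 was above BMP2 in the unstimulated and below it in the TNF-α libraries. INHBA, which forms activin A, went from 5.37 and 7.86 FPKM to 31.7 and 33.3 (log2 difference 2.16, SE 0.142, limma adjusted p = 0.000169). Of 15 tested ligands of the superfamily, a set chosen after their values had been seen, 4 were higher, with TGFB2 (0.68) and BMP5 (0.67), and 1 was lower. All tested genes had 3.1% higher and 1.14% lower, and 3 of these ligands were called higher when scaled to total reads. The receptors BMPR1A, BMPR2 and ACVR1 and the transducers SMAD1, SMAD5, SMAD9 and SMAD4 were not called, nor were BMP6 and BMP7.

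Other genes with large falls included regulators of transcription and of cell signaling. LBH, a transcription cofactor, went from 33.4 and 34.6 FPKM to 11.1 and 11.9 (log2 difference -1.48, SE 0.0713, limma adjusted p = 3.57e-05). ACKR3, a receptor that scavenges CXCL12, went from 19.2 and 17.9 FPKM to 5.54 and 6.95 (log2 difference -1.44), while CXCL12 was too low to be tested. FOXS1, a forkhead factor, went from 6.83 and 5.56 FPKM to 1.10 and 1.77 (log2 difference -1.57), and MN1, a transcription coregulator, from 8.37 and 10.9 FPKM to 3.71 and 3.91 (-1.14). HRCT1 (11.02 and 6.45 against 1.32 and 1.84 FPKM) and TMEM37 (7.60 and 5.82 against 2.39 and 2.55 FPKM) fell as well. SOCS1, an inhibitor of JAK kinases, went from 9.10 and 6.66 FPKM to 3.64 and 2.92 (log2 difference -1.04, limma adjusted p = 0.0198), and SOCS3, at 13.3 and 13.4 against 9.29 and 10.9 FPKM, was not called (adjusted p = 0.111).

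The largest fall of all, -2.42, was that of TMSB4XP8, a processed pseudogene on chromosome 4 listed at 1057 and 817 FPKM without and 205 and 145 with TNF-α. Its presumed parent TMSB4X, an actin-binding protein, was at 406 and 327 against 299 and 307 FPKM and was not called (log2 difference -0.26, limma adjusted p = 0.323), and reads shared by the pair cannot be told apart. The pseudogenes AC099560.2 and DND1P1 and the antisense gene COL5A1-AS1 were also among the 15 largest falls and carry the same uncertainty. In all, 25 genes that rose and 13 that fell were pseudogenes.

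**Figure D4:**
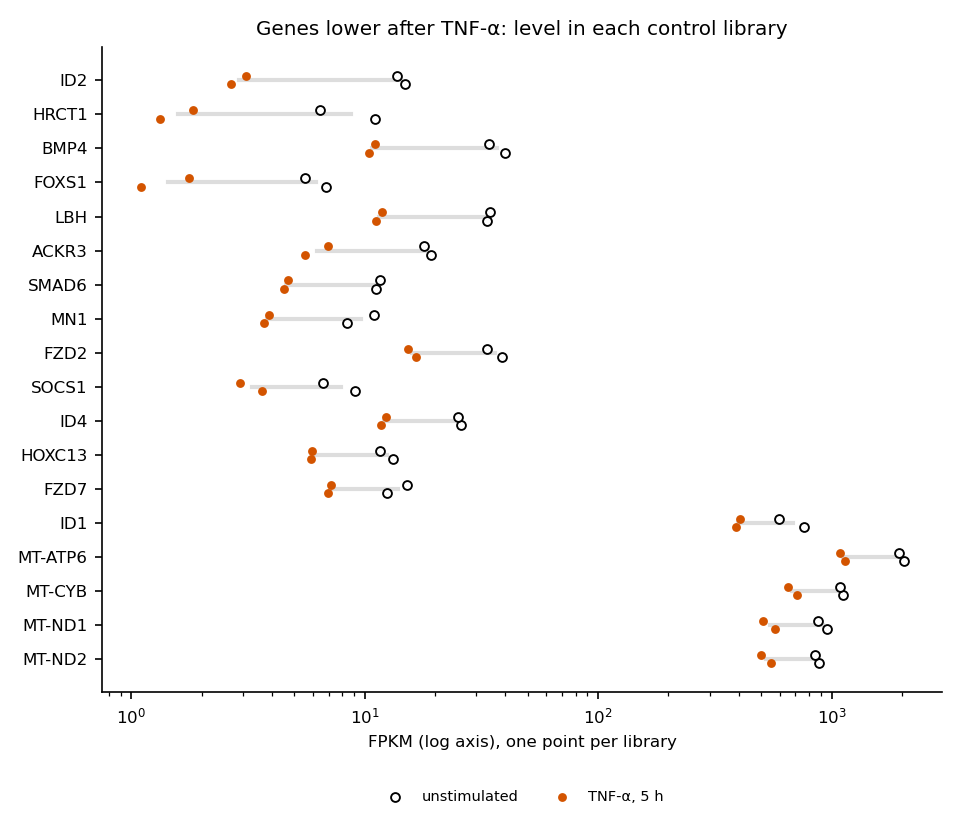
FPKM on a log axis for 18 genes that fell, drawn as for the genes that rose, with open points for unstimulated and filled points for TNF-α libraries. In all 18 the filled points lie to the left of the open points; ID2 moves from 13.8 and 14.8 to 2.68 and 3.09, and MT-ATP6 at the high end from 1936 and 2039 to 1091 and 1142.

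Transcripts of the mitochondrial genome, which encodes subunits of the respiratory chain, took 2.02% and 2.03% of all reads in the unstimulated libraries and 1.25% and 1.11% with TNF-α. Of 13 mitochondrial protein-coding genes 12 had a difference below 0, as had 47.6% of all tested genes, 5 were called lower (1.14% of all), 1 was called higher and 7 were not called (median log2 difference -0.73). MT-ATP6, a subunit of ATP synthase, went from 2039 and 1936 FPKM to 1142 and 1091 (log2 difference -0.83, SE 0.171, limma adjusted p = 0.0406), and MT-CYB, of complex III, from 1114 and 1084 FPKM to 709 and 651 (log2 difference -0.69, limma adjusted p = 0.0449). MT-ND1, MT-ND2 and MT-ND6 of complex I were the others called. MT-CO1, at 3506 and 3490.0 against 2045 and 1856 FPKM, was not called (adjusted p = 0.0788). MT-ATP8, whose reading frame overlaps that of MT-ATP6, was listed higher, from 15.8 and 14.2 FPKM to 25.2 and 35.7, and reads in the overlap cannot be told apart. How many of the 13 were called lower depended on the scaling, with 10 when scaled to total reads, 11 with voom on recovered reads and 1 with upper-quartile factors, while the median stayed between -0.81 and -0.66. Of 18 tested mitochondrial tRNA genes 17 were below 0 and 2 called lower, MT-TL1 and MT-TY, beside the same shares of all genes; 7 of the 18 had under 20 reads in both groups, and the 2 rRNA genes were not called.

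Some families were counted whole after their members had been seen among the calls, so their counts are a description, to be set beside the 3.10% higher, the 1.14% lower and the 47.6% below 0 of all tested genes. HOX genes, which give cells their position along the body axis, were lower in 8 of 29 tested and higher in 0, and 27 lay below 0 (median log2 difference -0.36). HOXC13 led them, from 13.2 and 11.7 FPKM to 5.89 and 5.97 (log2 difference -0.96, SE 0.117, limma adjusted p = 0.004), and HOXC6, HOXA4, HOXB6, HOXD8, HOXD11 and HOXA5 fell by 0.46 to 0.63. The 8 genes come from all of the HOXA, HOXB, HOXC and HOXD clusters. Frizzled receptors, which bind WNT ligands, were lower in 3 of 10 and higher in 0. FZD2 went from 38.7 and 33.6 FPKM to 16.6 and 15.3 (log2 difference -1.13, SE 0.0982, limma adjusted p = 0.000712), FZD7 from 12.4 and 15.2 FPKM to 6.97 and 7.18 (-0.87) and FZD1 from 10.0 and 12.2 FPKM to 6.27 and 7.08 (-0.65). Of 13 WNT ligands WNT11 was lower, from 1.22 and 1.11 FPKM to 0.497 and 0.432, and WNT4 was higher, at under 0.5 FPKM throughout. When scaled to total reads no WNT ligand was called higher, nor with the GC and length correction, which called 2 lower.

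Other families rose in part or split. All 4 tested guanylate-binding proteins, interferon-inducible GTPases, were higher, GBP1 from 1.11 and 1.09 FPKM to 3.65 and 3.74, and all 4 tested apolipoproteins L, led by APOL6, from 1.13 and 1.44 FPKM to 3.64 and 3.40. Of the apolipoproteins L, 2 were called when scaled to total reads and 3 with voom. Of 11 laminin chains 2 were higher, among them LAMB3, from 49.6 and 45.5 FPKM to 131 and 136 (log2 difference 1.47, SE 0.0804, limma adjusted p = 6.68e-05). The immune checkpoint ligands CD274 (PD-L1), PDCD1LG2 (PD-L2) and CD276 (limma adjusted p = 0.0495) were all higher, CD274 from 0.974 and 0.928 FPKM to 2.60 and 2.48, and 2 of the 3 were called when scaled to total reads, with upper-quartile factors and with voom. Ephrins and their receptors split into 3 higher, with EPHA2 from 87.4 and 91.2 FPKM to 149 and 164, and 2 lower of 19 (1 with upper-quartile factors), with 14 not called. The endothelins moved apart: EDN1 went from 21.95 and 19.04 FPKM to 48.2 and 43.7 and EDN2 from 20.2 and 14.9 FPKM to 7.94 and 7.71. Among EGF ligands HBEGF, from 5.92 and 6.09 FPKM to 17.3 and 18.5, and NRG1 were higher of 8, and the receptor EGFR itself went from 1.53 and 2.20 FPKM to 4.22 and 4.39 (limma adjusted p = 0.00855). The factors ETS1, from 15.4 and 17.9 FPKM to 47.5 and 46.6, and ETS2 both rose.

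**Figure D5:**
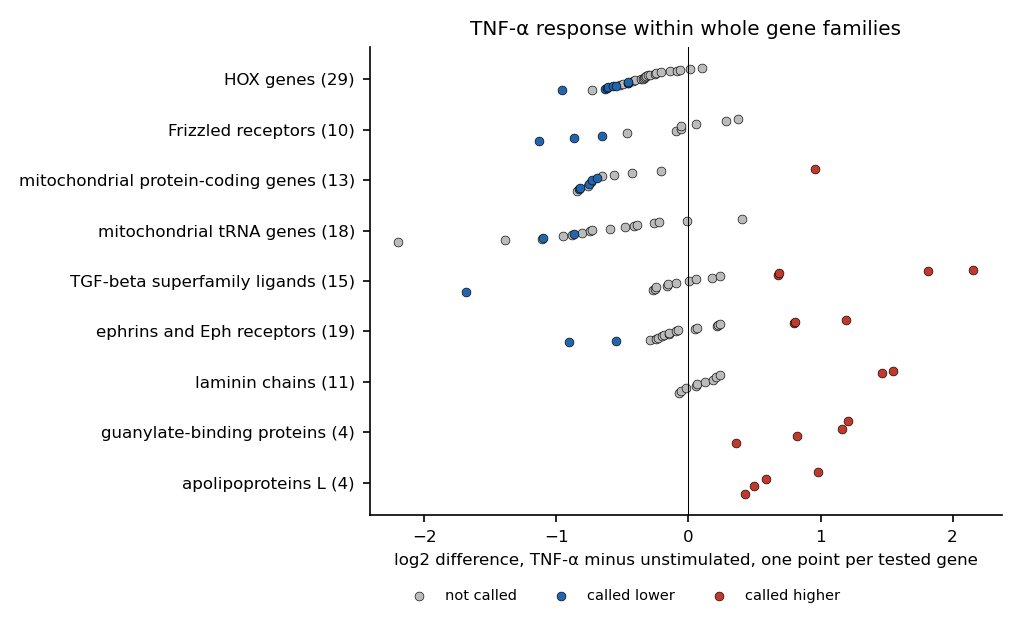
Each point is a tested gene placed by its log2 difference between TNF-α and unstimulated control cells, with the number tested in brackets after the family name and separate colours for genes called higher, called lower and not called. Of the 29 HOX genes 27 lie left of 0 and of the 13 mitochondrial protein-coding genes 12 do, while all guanylate-binding proteins and apolipoproteins L lie right of it.

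Some genes that rose lay near each other. Taken in order along a chromosome, genes that rose formed 53 pairs less than 100 kb apart, covering 97 genes, and genes that fell formed 12 pairs, covering 22 genes. No other tested gene lay between the members in 37 and 8 of these pairs; the number expected from gene density was not tested. Besides TNF with LTB, BIRC3 with BIRC2 and CCL2 with CCL7, these included TAP2 with TAP1 (6.43 kb, with 3 tested genes between their starts), CXCL5 with CXCL3 (37.8 kb), CD274 with PDCD1LG2 (40.0 kb) and runs of GBP and APOL genes. Pairs that fell included HOXA4 with HOXA5, and HOXD11 with HOXD8 and HOXC13 with HOXC6, each of the latter with 3 tested genes between them. Some pairs in both directions overlap, such as OLR1 with TMEM52B and HOXC13-AS with HOXC13, and reads in an overlap cannot be told apart. Genes that fell were shorter in exons, with a median of 2604 bases, than genes that rose (4556 bases) or all tested genes (4532 bases). The median unstimulated level was 5.42 FPKM for genes that rose and 5.12 FPKM for genes that fell, against 2.73 FPKM for all tested. Levels under 1 FPKM were seen in 22.07%, 13.76% and 31.55% of them. The log2(FPKM + 1) scale makes differences at such levels smaller, and its part in these medians was not tested. The letters ATTTATTTA, an AU-rich element that marks short-lived mRNAs, were searched in genes with an annotated 3′ UTR. They were found in 12.01% of 458 that rose, 16.8% of 119 that rose by more than 1, 6.94% of 144 that fell and 9.05% of 13485 in all. CSF2, CXCL8, TNF and BIRC3 held them, and NFKBIA, TNFAIP3, CCL2, LTB, TRAF1, PTX3, TNFRSF9, LIF and IL6 did not. This search was added after the data were seen, and the shares were not tested.

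The KD cells, stimulated in the same way, raised the 5 markers too. Their log2 differences were 5.36 for CSF2, 5.20 for CXCL8, 4.43 for CCL2, 3.57 for TNFAIP3 and 3.34 for NFKBIA. The test of the difference between the responses, KD minus control, passed for CXCL8 at 0.75 (limma adjusted p = 0.0038), NFKBIA at 0.57 (limma adjusted p = 0.0196) and TNFAIP3 at -0.29 (limma adjusted p = 0.0491), and did not pass for CSF2 at 0.23 or CCL2 at 0.14. The call was lost for NFKBIA without a filter and, with a smaller difference, when scaled to total reads or corrected for GC and length. TNFAIP3 lost it at a mean of 1 CPM, with the replicate block and, with a smaller difference, with upper-quartile factors. CXCL8 lost it with voom, and the CCL2 difference turned negative with voom and when scaled to total reads. The same test passed for 7614 of 16528 genes, or 46.1%. It uses the unstimulated KD libraries, which stand apart from the other 6, and their part in these differences was not tested.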

How the data were processed

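Total RNA of U2OS cells was sequenced by Novogene. The authors deposited FPKM values for 58735 genes of GENCODE release 29 on GRCh38. The unit was read from the values: multiplied by exon length, the FPKM values of a library step in units of 1 read (100% of values, tolerance 0.05 reads), which gave the reads per library. The sizes by which the authors divided equal median-of-ratios size factors over all 8 libraries, so groups were scaled together before deposit. The submitters' processing notes name CASAVA 1.8, fastp, HISAT2 2.0.5, featureCounts 1.5.0-p3 and DESeq2 1.20.0, and the paper's methods name edgeR; the strand of counting is not given in the sources used here.

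The filter asked for 10 reads, scaled to the median depth, in 2 or more libraries, and for 15 reads over the series. The test of log2(FPKM + 1) differences was limma's (version 3.58.1, R 4.3.3), with a mean for each of 4 groups over all 8 libraries (4 residual degrees of freedom), a variance trend, and Benjamini-Hochberg adjustment over the 16528 genes. With the pseudocount of 1, log2 differences of genes at or under 1 FPKM come out smaller than their ratios. Reading and drawing used Python 3.11.15, pandas 2.3.3, numpy 2.4.6 and matplotlib 3.10.9.

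Named genes were the 5 markers, list members that passed or were needed to account for a list, the 15 largest rises and falls among called genes, and the 5 largest changes in mean FPKM either way; families, SOCS and BMP pathway genes, pseudogene comparisons and genes on no list outside this rule were chosen after their values were seen. The members and lists were chosen with earlier results of these data known. Some members of these lists are not reported here by name. Alternatives were a pseudocount of 0.1, no filter, a mean of at least 1 CPM, scaling to total reads or upper quartiles, voom on the recovered reads, the replicate number as a block, a spline correction for GC content and length (5 degrees of freedom), fewer libraries, and leaving out each control library.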

Additional observations from a re-analysis of the deposited data

Results flagged for a closer look

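Of the 5 markers, 3 differed in their TNF-α response between KD and control cells by limma's interaction test. The difference, KD minus control on the log2 scale, was 0.57 for NFKBIA (adjusted p = 0.0196), 0.75 for CXCL8 (adjusted p = 0.0038) and -0.29 for TNFAIP3 (adjusted p = 0.0491). None of these calls held under every alternative. CXCL8 lost its call with voom, NFKBIA among others with the GC and length correction, and TNFAIP3 among others with upper-quartile factors. The NFKBIA and TNFAIP3 differences were smaller under these alternatives. These genes rose in all 4 comparisons of a TNF-α with an unstimulated control library and in the KD cells alike, and the test concerns the size of the rise. It passed for 46.1% of all tested genes, and the unstimulated KD libraries, which enter every such difference, lay 68.8 to 99.8 from all libraries of other groups; their part in it was not tested.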

How the results depend on the processing

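Under 14 alternatives, 73 of 131 genes named by the rule kept their direction and their side of the threshold everywhere, and 0 reversed. Genes called higher numbered 288 without a filter on low reads and 202 with the 4 control libraries only, and 191 to 1431 when a control library was left out. Genes called lower numbered 80, 36 and 38 to 699 in the same order, 307 with the correction for GC content and length, and 96 without the unstimulated KD libraries. Beyond 1 on the log2 scale, 250 genes rose and 80 fell with a pseudocount of 0.1 and 241 and 58 with voom, 18 fell without a filter, and 129 to 187 rose and 22 to 41 fell when a control library was left out. With the replicate number as a block, 416 genes were higher and 150 lower; the labels give no meaning to the shared number. Deviations of libraries with the same number correlated at -0.13 between the unstimulated and TNF-α control groups, and at -0.19 to 0.35 over all 6 pairs of groups.

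The difference in response between KD and control cells lost its call for NFKBIA without a filter (0.57, adjusted p = 0.0581), when scaled to total reads (0.29, adjusted p = 0.11) and with the GC and length correction (0.10, adjusted p = 0.421), and ranged from 0.43 to 0.72 over leave-outs. For TNFAIP3 it lost its call at a mean of 1 CPM (-0.29, adjusted p = 0.0549), with upper-quartile factors (-0.12, adjusted p = 0.378) and with the replicate block (-0.29, adjusted p = 0.0756), and ranged from -0.31 to -0.27. For CXCL8 it lost its call with voom (0.53, adjusted p = 0.0595) and ranged from 0.67 to 0.84. For CCL2, never called, it was -0.047 when scaled to total reads and -0.058 with voom. The causes were not tested. Genes with fewer than 15 reads over the series, such as CXCL9, could not be called at this depth.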

Other observations

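Other genes on no list rose strongly as well, and their values, seen before they were chosen, add to the description. IL4I1, a secreted amino acid oxidase, went from 0.494 and 0.406 FPKM to 7.26 and 6.73 (log2 difference 2.46). CD83, a surface protein of activated dendritic cells, went from 7.96 and 6.73 FPKM to 43.0 and 41.4 (log2 difference 2.38), and IRAK2, a kinase of interleukin-1 and Toll-like receptor signaling, from 0.747 and 0.896 FPKM to 8.17 and 8.40 (log2 difference 2.35). The tight junction gene CLDN1 went from 1.98 and 2.19 FPKM to 12.4 and 12.9, STAT5A from 2.56 and 2.60 FPKM to 13.3 and 14.1, and the PI3-kinase subunit PIK3CD from 5.89 and 7.60 FPKM to 28.6 and 29.1. The IKK-related kinase IKBKE went from 3.91 and 3.49 FPKM to 15.8 and 16.8. ESM1, a proteoglycan known from activated endothelium, went from 0.371 and 0.386 FPKM to 4.76 and 4.09. Each of these genes passed the limma test, with adjusted p-values from 2.61e-05 (IRAK2) to 9.35e-05 (ESM1), and in each the groups did not overlap.

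Several processed pseudogenes of ribosomal proteins were called higher although their presumed parents were not. RPL24P4 went from 20.6 and 17.2 FPKM to 44.5 and 65.9, while RPL24 was at 360.1 and 243.5 against 291.8 and 296.5 FPKM. RPL37AP1 went from 3.11 and 3.73 FPKM to 10.1 and 11.4, and RPL37A was not called. The protein-coding gene RPL26 went from 17.2 and 11.9 FPKM to 7.78 and 7.74 (limma adjusted p = 0.0326). Reads shared by near-identical copies cannot be told apart in these values.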
